A study of Mus musculus with 15 samples.

Results

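The left ventricle of mice with transverse aortic constriction was compared with that of sham-operated mice, both given saline, to describe what pressure overload by itself does to ventricular RNA. The groups were taken from the sample titles: 5 TAC saline and 5 sham saline libraries, which are 10 of the 15 libraries of the series. The other 5 libraries came from constricted mice given neuregulin-1β and are not part of the comparison. All mice were male and of the C57BL/6NRj strain, and both groups carried minipumps with saline after sham or constriction surgery. RNA came from frozen left ventricle and was profiled with BRB-seq, in which barcoded samples are pooled early and reads come from transcript 3′ ends. Neither age nor the time after surgery is stated in the sources used here. No label states that libraries come from different mice, so p-values reflect the spread among these 5 and 5 samples, which may be technical.

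Transverse aortic constriction narrows the aortic arch, so that the left ventricle must eject against a higher pressure. Cardiomyocytes answer such a load by growing, and the ventricle is known to return to part of its fetal gene programme, with natriuretic peptides, the slow beta myosin heavy chain and skeletal alpha-actin among the classic markers. Fibroblasts lay down collagen and matricellular proteins, and the adult heart's reliance on fatty acid oxidation is known to weaken. Whole ventricle holds cardiomyocytes, fibroblasts, vascular cells and macrophages together.

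Reads summed to 2.86 to 4.47 M per library, with 3.60 ± 0.55 M in sham and 3.42 ± 0.41 M in TAC (SD, n = 5 each). Levels are in counts per M reads (CPM), taken from the deposited log2 values and therefore on the authors' scaling. The ventricular markers Myl2, Myl3 and Tnni3 stood at 17410.0, 13221 and 11459.6 CPM in sham. The atrial light chain Myl7 had 15 reads in all sham libraries together and 13 in all TAC libraries. Mitochondrially encoded transcripts took 31.1% ± 0.47 of reads in sham and 27.7% ± 1.62 in TAC (SD, n = 5 each). That difference had an exact two-sided permutation p of 0.0079, the smallest that 5 against 5 libraries can give (adjusted p = 0.024 over 3 library measures). Haemoglobin transcripts took 0.142% and 0.131% of reads (exact permutation p = 0.706, adjusted p = 0.706). On the first principal component (34.6% of variance), sham libraries lay between -26.95 and -11.98 and TAC libraries between 2.46 and 30.8.

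Of 15258 genes, 10680 were abundant enough to test, and 1341 of them (12.6%) differed at an adjusted p under 0.05 in limma. Of these, 751 rose in TAC (7.03% of genes tested) and 590 fell (5.52%). Increases were the larger changes: 160 genes rose more than 2-fold and 25 more than 4-fold, while 18 fell more than 2-fold and 0 more than 4-fold. The median log2 fold change was 0.64 among genes that rose and -0.42 among genes that fell, against -0.01 over all genes tested. In 891 genes (8.34%) the 5 TAC and 5 sham libraries did not overlap, 486 with TAC higher and 405 with TAC lower. In bulk RNA, a change in the number of cells of a type and a change in RNA per cell cannot be told apart, and this holds for every result here.

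The balance of the 2 directions rested on the scaling. On the authors' scaling 56.0% of called genes rose. With libraries scaled to total reads alone, 1118 genes rose and 228 fell (83.1% rose), and the median over all genes tested moved to a log2 fold change of 0.10. With mitochondrial genes left out before scaling to total reads, 837 rose and 421 fell (66.5%). All 751 genes that rose also rose with total reads, whereas 228 of the 590 that fell also fell. The number of called genes also rested on single libraries: it was 868 without TAC library 1 and 780 without TAC library 5.

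**Figure D1:**
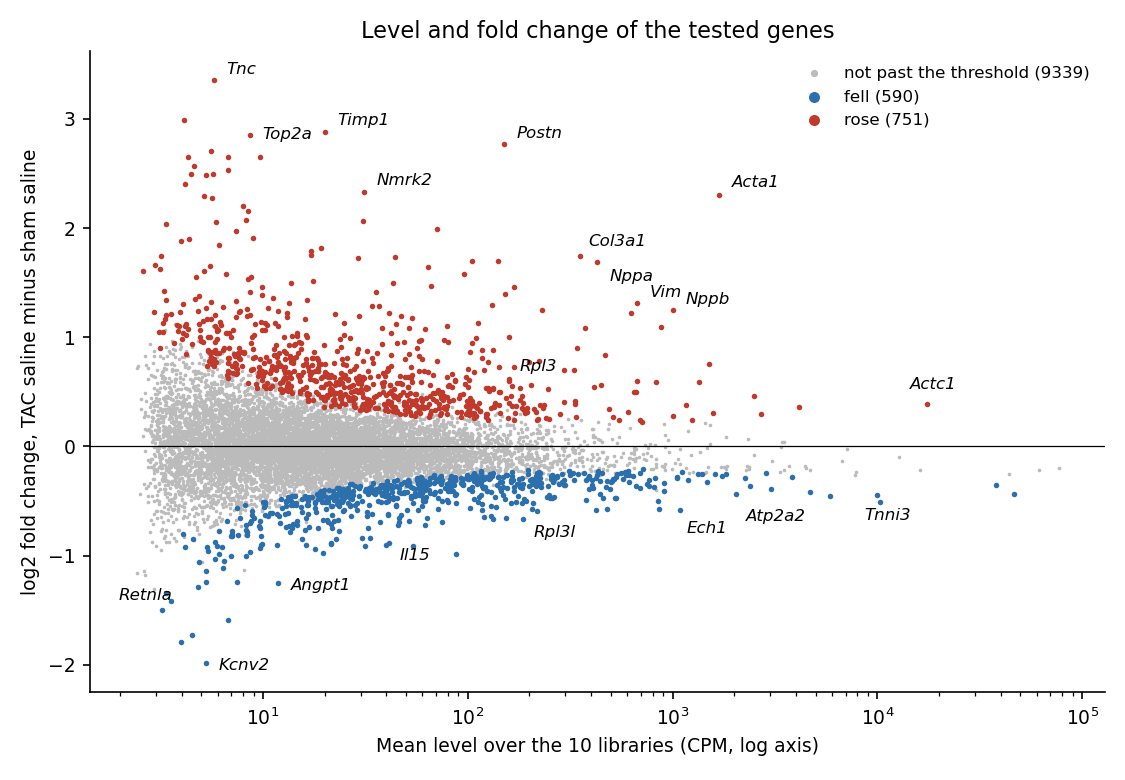
Log2 fold change of TAC saline over sham saline (vertical axis) against mean level over the 10 libraries in CPM (horizontal log axis) for the 10680 genes tested; each point is a gene, red rose (751), blue fell (590) and grey did not pass the threshold. Large increases lie at all levels, up to Acta1 and Nppb near 1000 CPM and above, while the genes that fell changed less, with a median of -0.42 against 0.64 for those that rose.

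On the authors' scaling the direction of change went with abundance. The shares by level were not counted on total reads alone, where 228 of the 590 genes that fell still fell. Of the 1039 genes with a mean over 100 CPM, 12.7% rose and 20.02% fell. Among the 1183 genes under 5 CPM, 3.72% rose and 0.845% fell, and there the median standard error was 0.30 on the log2 scale against 0.081 in the abundant genes. Together the nuclear genes that rose went from 66066 to 97007 CPM, and 40.6% of that gain came from 10 genes, led by the cardiac actin Actc1 (14.8%) and Acta1 (7.27%). The 586 nuclear genes that fell dropped by 28267 CPM, of which the troponin gene Tnni3 made up 10.4%, the calcium pump gene Atp2a2 6.33% and the phospholamban gene Pln 4.65%.

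TAC libraries differed in how far they moved. Of the 751 genes that rose, 341 were highest in TAC 5, 179 in TAC 1 and 161 in TAC 4, while 423 were lowest, among the TAC libraries, in TAC 3. The median shift of these genes from the sham mean was 0.73, 0.53, 0.41, 0.69 and 0.81 (log2) in TAC 1 to 5. For the genes that fell it was -0.49, -0.32, -0.25, -0.42 and -0.57. The mitochondrial share of reads was 26.6%, 29.3%, 29.6%, 26.9% and 26.0% in the same libraries, lowest where the shifts were largest; its part in those shifts was not tested. Spread on the log2 scale was wider in TAC than in sham for 79.3% of the genes that fell and 58.6% of those that rose, against 53.02% of all genes.

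**Figure D2:**
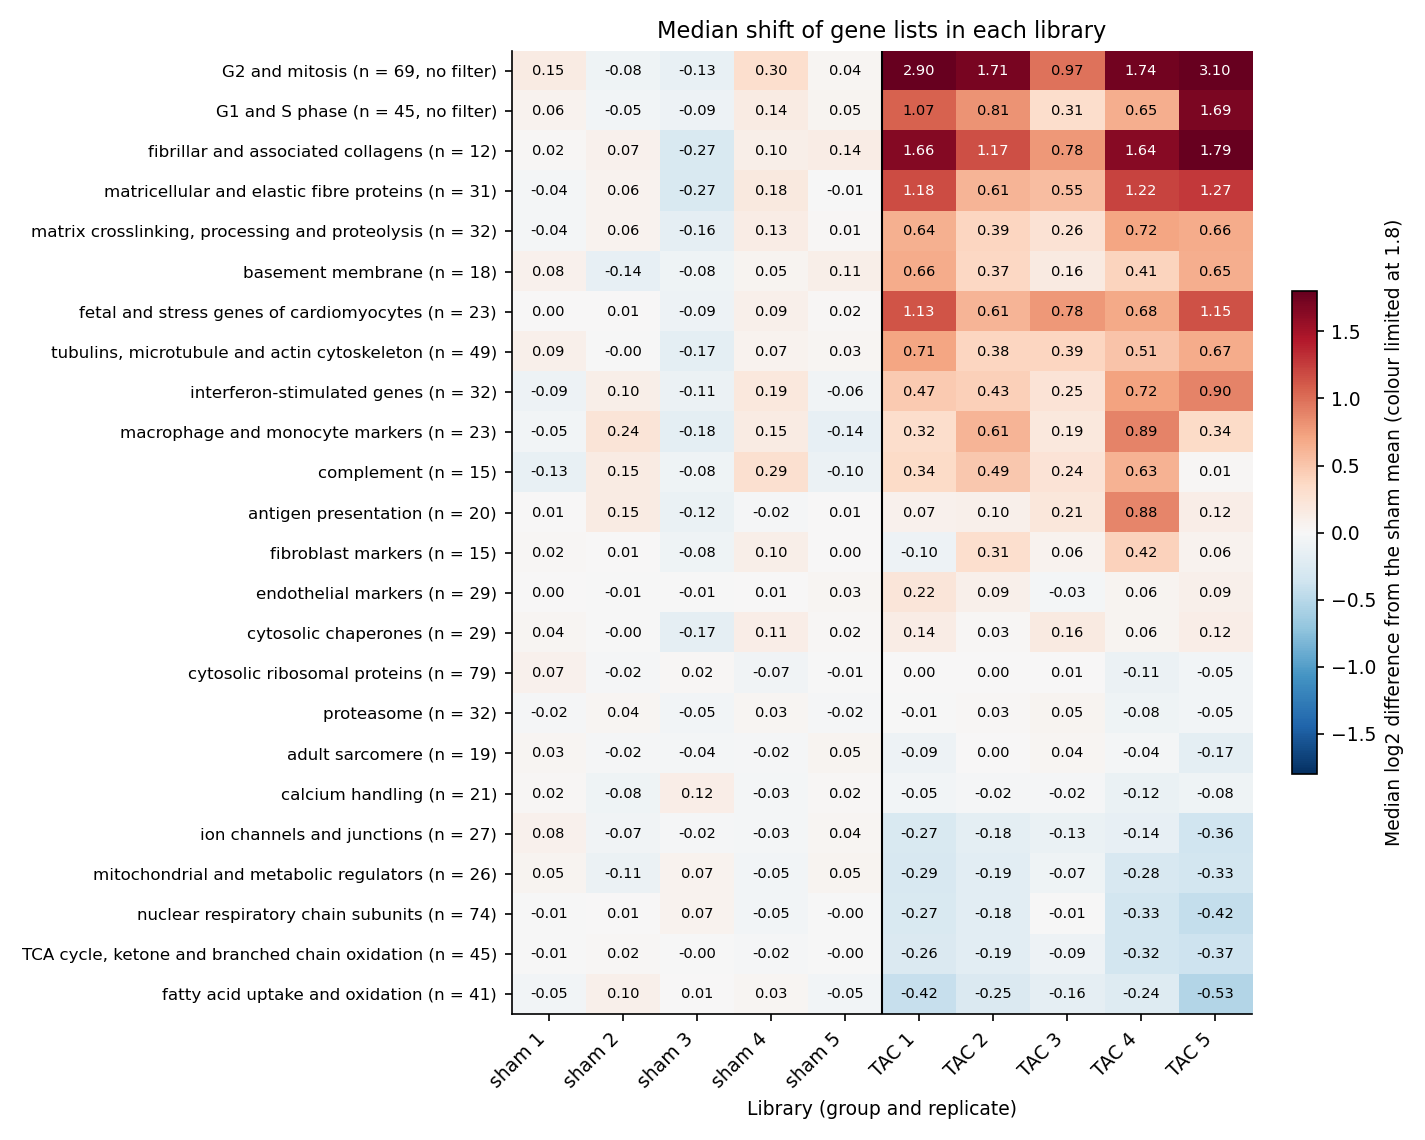
Median log2 difference from the sham mean (colour and number) of the members of 24 gene lists (rows) in each of the 10 libraries (columns); n is the number of members, tested members except for the 2 cell cycle lists, which hold all members in the files. TAC libraries 1 and 5 show the strongest shifts in mitosis genes and collagens, and TAC library 3 the weakest shifts in most of the lists that moved.

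The fetal and stress genes of cardiomyocytes made up one of the most uniform groups. Of 23 tested members, 21 rose and 0 fell, with a median log2 fold change of 0.83. For this list and those that follow, where 0 members are given in a direction, at most 2 reached an unadjusted p under 0.05 in it and 0 passed with voom weights, unless stated otherwise. Natriuretic peptides are hormones that the stretched heart releases and that lower blood volume and pressure. Nppa, which encodes atrial natriuretic peptide, stood at 228, 182, 215, 183 and 176 CPM in sham libraries 1 to 5 and at 705, 458, 435, 874 and 813 CPM in TAC libraries 1 to 5. Each TAC library was above every sham library, with TAC 1, 4 and 5 the highest, and the gene rose 3.22-fold (log2 fold change 1.69 ± 0.15 SE, adjusted p = 5.1e-07). Nppb, which encodes B-type natriuretic peptide, went from 919, 383, 413, 598 and 704 CPM to 2014, 871, 1573, 1159 and 1437 CPM. The groups again did not overlap (log2 fold change 1.25 ± 0.19 SE, adjusted p = 1.8e-04).

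Sarcomere isoforms of the fetal heart rose as well. Acta1, the skeletal alpha-actin gene, was at 387, 651, 375, 860.0 and 551 CPM in the sham libraries and at 3951, 2109, 2103, 1845 and 4064 CPM in the TAC libraries. TAC 1 and TAC 5 were far above the other 3, and the rise was 4.94-fold (adjusted p = 5.7e-07). Myh7, which encodes the slow beta myosin heavy chain, was at 90.8, 43.9, 58.5, 57.5 and 76.4 CPM in sham and 228, 185, 133, 315 and 209.8 CPM in TAC, with no overlap (log2 fold change 1.70 ± 0.18 SE, adjusted p = 1.4e-06). Here TAC 4 was the highest library. Mybpc2, a fast skeletal myosin binding protein gene chosen after its values were seen, rose from 9.25 ± 3.15 to 25.7 ± 4.72 CPM.

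Z-disc and stress proteins of the same list moved together. Ankrd1, a mechanosensitive repeat protein of the sarcomere's I-band, rose from 554 ± 83.7 to 1199 ± 291 CPM, and the actin-binding gene Xirp2 from 235 ± 17.004 to 508 ± 124 CPM. Synpo2l rose 2.46-fold (adjusted p = 2.2e-06). Rcan1, a feedback inhibitor of calcineurin, rose from 70.8 ± 13.2 to 134 ± 49.5 CPM and was not past the threshold with a robust spread estimate (adjusted p = 0.050). Smaller increases were those of the small heat shock gene Hspb7 (log2 fold change 0.59 ± 0.08 SE) and the intermediate filament gene Des (0.31 ± 0.08). Myl4 at 2.74 and 2.96 CPM and Ldb3, with a log2 fold change of -0.00 ± 0.07, did not pass, and Tnni1 and Myl7 were too low to test.

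In the atrial marker list, of 6 tested of 8 members in the files, Clu rose and Stard10 and Kcnj3 fell, with a median of -0.08. Stard10 was not past the threshold without sham 1, sham 2, TAC 1 or TAC 5 in turn (adjusted p = 0.057 to 0.07). Without the filter 2 of the 8 rose and 2 fell. The list summed to 775 to 989 CPM in sham and 930 to 1583 CPM in TAC. Most of that was Clu, with means of 653 CPM in sham and 1002 CPM in TAC. Myl7, its defining light chain, was at 0.966 ± 0.380 and 0.827 ± 0.463 CPM.

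The proximal promoters of Acta1 and Nppb are shown because both genes rose and both hold an M-CAT element, the motif bound by TEAD factors; Acta1 also holds a CArG box, the motif bound by serum response factor. Each sequence runs from 160 bases before to 40 bases after the RefSeq start on GRCm38.p6 and reads 5′ to 3′ along the gene's strand, with motif matches in capitals. Acta1 lies on the minus strand at chr8:123894736-123894935 and Nppb on the plus strand at chr4:147985740-147985939.
Acta1: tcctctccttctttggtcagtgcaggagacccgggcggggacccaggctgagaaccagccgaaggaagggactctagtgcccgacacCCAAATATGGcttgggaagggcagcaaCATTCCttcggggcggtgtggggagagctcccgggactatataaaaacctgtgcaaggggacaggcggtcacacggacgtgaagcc
Nppb: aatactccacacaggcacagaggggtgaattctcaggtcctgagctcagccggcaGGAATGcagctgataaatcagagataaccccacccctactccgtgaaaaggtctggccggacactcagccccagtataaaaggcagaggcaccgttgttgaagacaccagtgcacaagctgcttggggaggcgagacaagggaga
In Acta1 the CArG box starts at position -73 and the M-CAT, spelled CATTCC, at -46 from the start. The Nppb match reads on the opposite strand, at -105. M-CAT letters on either strand were found in 38.1% of the 21 fetal and stress genes with a promoter entry and in 11.9% of the 8470 tested genes with one, in windows from 250 bases before to 50 after the start. The adult sarcomere list, most of whose members did not pass, held them in 43.8% of 16 promoters. CArG boxes were found in 14.3% of the fetal and stress genes, 18.8% of the adult sarcomere genes and 1.36% of all. These are matches of letters and not measured binding.

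**Figure D3:**
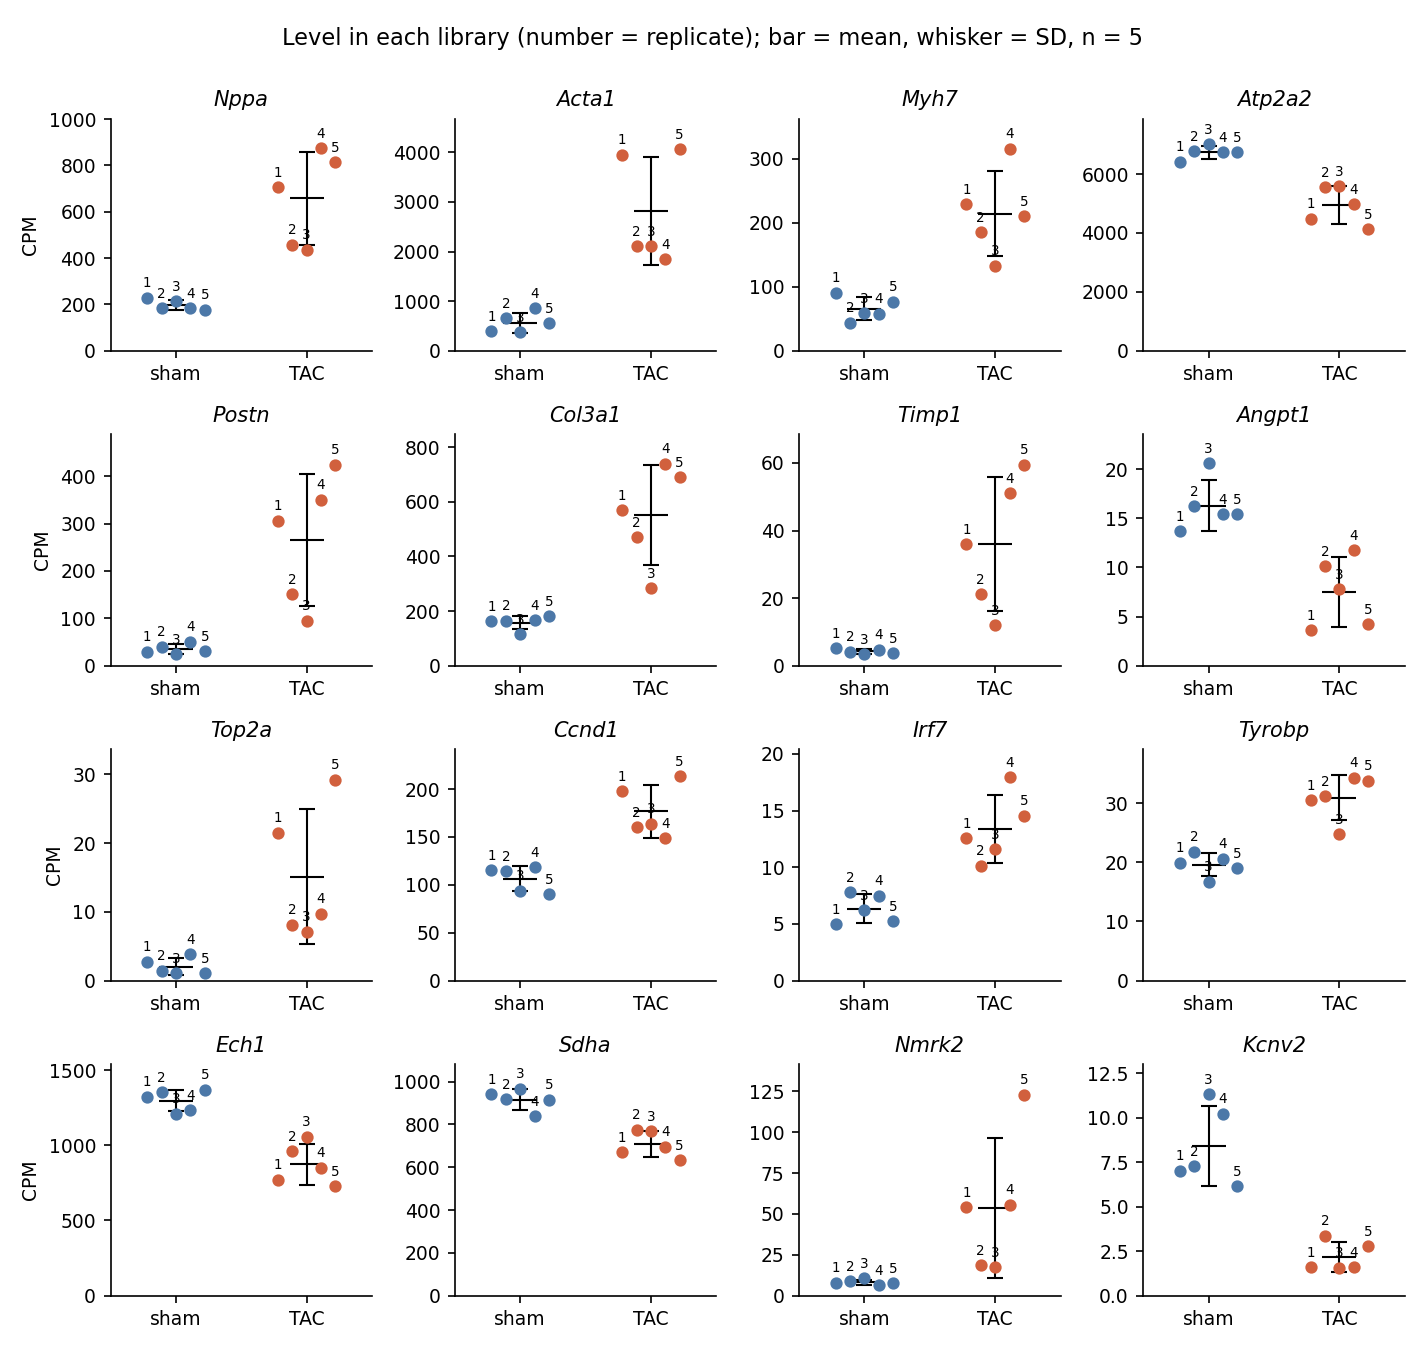
Level in CPM (vertical axes, each starting at 0) of 16 genes in each sham and TAC library; points are libraries labelled with their replicate number, bars are means and whiskers SD (n = 5). In all 16 genes the 5 TAC libraries lie wholly above or wholly below the 5 sham libraries.

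Adult sarcomere genes did not move as a group. Of 19 tested, 4 rose (Actc1, Tnnc1, Myom1 and Actn2) and 2 fell, with a median of -0.09. Actc1, the main cardiac actin gene, stood at 15141, 15257, 12135, 16694 and 16367 CPM in sham and 20009.8, 19053, 19939, 18934 and 20601 CPM in TAC, a small but separate increase (log2 fold change 0.39 ± 0.10 SE, adjusted p = 0.01). Tnni3, which encodes the cardiac inhibitory troponin subunit, fell from 11459.6 ± 284 to 8518 ± 1428 CPM. Mylk3, the cardiac myosin light chain kinase gene, fell by 0.44 ± 0.10 on the log2 scale (adjusted p = 0.0055). Myh6, the fast alpha myosin heavy chain gene, was at 7027 ± 335 CPM in sham and 6407 ± 621 in TAC and did not pass the test (adjusted p = 0.32), and Myl2 and Myl3 did not pass either.

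In calcium handling, 4 of 21 tested genes rose and 4 fell, with 2 rises without TAC 5, sham 2 or sham 4. Atp2a2, which encodes the pump that returns calcium to the sarcoplasmic reticulum, was at 6416, 6781, 7011, 6735 and 6740.4 CPM in sham and 4480.4, 5559.8, 5584, 4984 and 4122 CPM in TAC. Every TAC library was below every sham library (log2 fold change -0.46 ± 0.09 SE, adjusted p = 0.0014). Pln, whose product phospholamban restrains that pump, fell from 5344 ± 167 to 4030.4 ± 571 CPM, and Hrc, a calcium-binding protein of the same store, fell by 0.52 ± 0.11 on the log2 scale. Ryr2, the calcium release channel gene, fell by 0.29 ± 0.09 (adjusted p = 0.03; adjusted p = 0.17 on total reads alone), and was not past the threshold without sham 3, sham 4, TAC 1, TAC 4 or TAC 5 in turn (adjusted p = 0.059 to 0.085).

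Other calcium handling genes went the other way. Casq1, the calsequestrin of fast skeletal muscle, rose from 5.56 ± 2.49 to 14.3 ± 2.56 CPM (adjusted p = 3.2e-04), and Srl, which encodes sarcalumenin, rose 1.46-fold. Slc8a1, the sodium-calcium exchanger gene, had a log2 fold change of 0.30 ± 0.09 (adjusted p = 0.025) and was not past the threshold without sham 2, sham 4, TAC 1 or TAC 5 in turn (adjusted p = 0.063 to 0.077).

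Several potassium channel genes fell. Kcnv2, a modifier subunit of voltage-gated potassium channels, had the lowest log2 fold change of all genes tested, -1.98 ± 0.29 (adjusted p = 8.1e-05). Its levels were 7.005, 7.25, 11.3, 10.2 and 6.13 CPM in sham and 1.59, 3.37, 1.56, 1.61 and 2.77 CPM in TAC, without overlap. Kcnip2, the subunit that sets the transient outward current, fell from 162 ± 28.7 to 102 ± 19.1 CPM, Kcnj2 from 26.5 ± 3.04 to 16.5 ± 4.02 CPM and Kcnj3 from 38.99 ± 2.60 to 25.7 ± 6.97 CPM. Abcc9, a subunit of ATP-sensitive channels also listed as a pericyte marker, fell by 0.52 ± 0.12 on the log2 scale. In all, 6 of 27 tested channel and junction genes fell and 2 rose, with a median of -0.21 (-0.10 on total reads alone, where 5 fell and 2 rose). Without TAC 3 the count that fell was 10, and the count that rose was 0 without TAC 4 and 1 without TAC 5. Gja1, which encodes the main ventricular gap junction protein, was at 363 and 354 CPM.

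Ratios of related genes within a library do not depend on the scaling of that library, and 19 pairs were set side by side after the results were seen. In 9 pairs all TAC ratios were above all sham ratios, in 0 pairs were they all below, and in the other 10 the groups overlapped. For single genes, 8.34% of those tested did not overlap. The pairs and the order of their 2 genes were set with the results known. Neither the number of separate pairs nor their shared direction is therefore read as a result. The Acta1 to Actc1 ratio was 0.026 to 0.052 in sham and 0.097 to 0.197 in TAC. Myh7 to Myh6 went from 0.0064 to 0.012 in sham to 0.019 to 0.051 in TAC. Rpl3 and Rpl3l encode the widely used and the striated muscle form of the same ribosomal protein, and they parted: Rpl3 rose (log2 fold change 0.62 ± 0.09 SE) and Rpl3l fell (-0.66 ± 0.10). Their ratio was 0.520 to 0.583 in sham and 0.886 to 2.08 in TAC. Of metabolic pairs, Ldha to Ldhb was 0.331 to 0.388 in sham and 0.437 to 0.715 in TAC. Ckb to Ckm, Pfkp to Pfkm and Nmrk2 to Nampt were separate as well. Outside metabolism, so were Tpm4 to Tpm1 and Casq1 to Casq2. The ratios compare libraries and not the levels of the 2 genes of a pair, whose 3′ ends are captured with different efficiency.

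**Figure D4:**
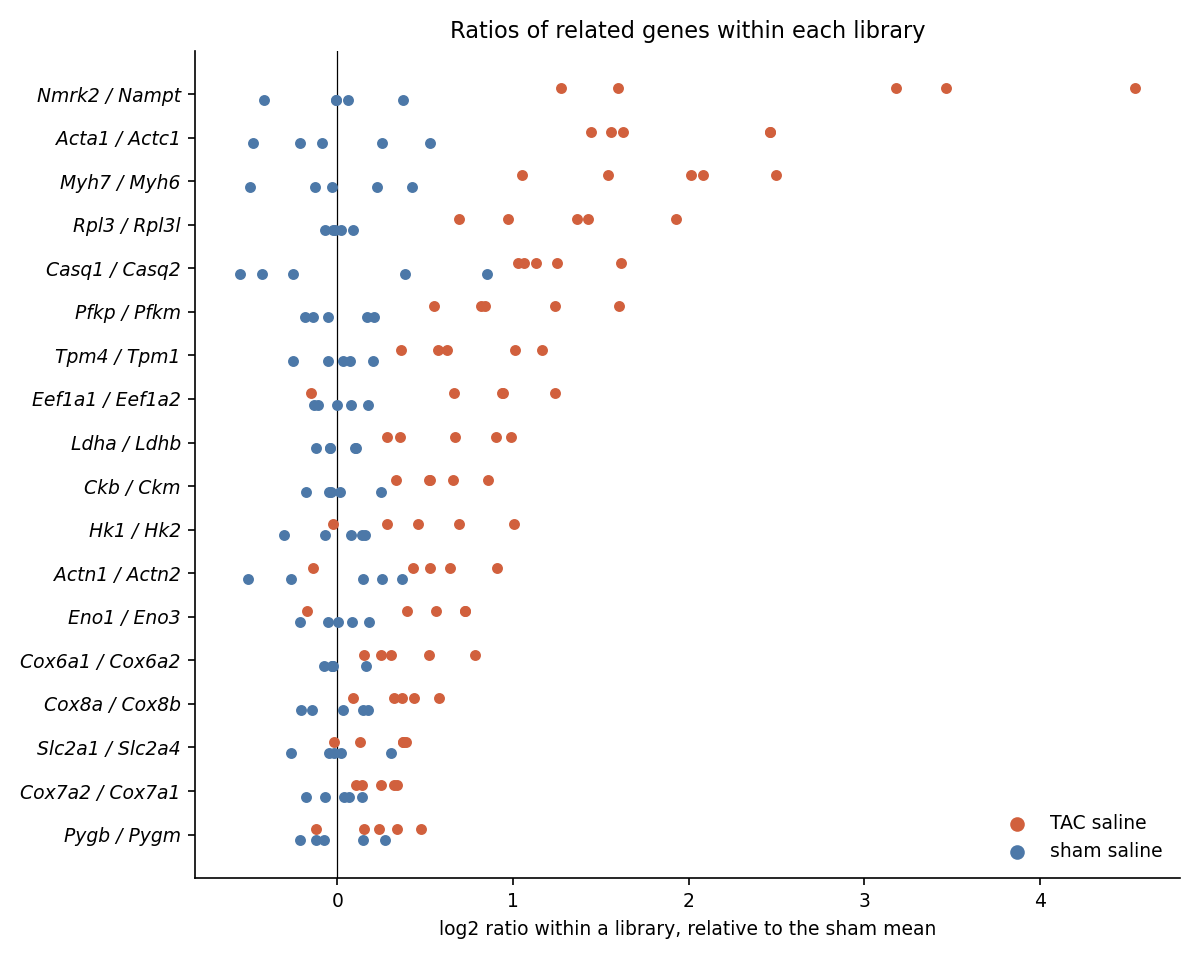
Log2 ratio of the paired genes within each library, set to a sham mean of 0 (horizontal axis), for 18 of the 19 pairs (rows), both members of which were tested; each point is a library, orange TAC saline and blue sham saline. The TAC points lie wholly to the right of the sham points in 9 pairs, furthest for Nmrk2 over Nampt and Acta1 over Actc1.

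Genes of fatty acid uptake and oxidation were lower in TAC. Of 41 tested, 24 fell and 1, the uncoupling protein gene Ucp2, rose, with a median of -0.33. On total reads alone 15 fell and 1 rose (median -0.22), and without TAC library 5 the count that fell was 16. Ech1, an enzyme of unsaturated fatty acid oxidation, was at 1322, 1352, 1209, 1235 and 1369 CPM in sham and 772, 959.8, 1057, 852 and 729 CPM in TAC. The groups were separate, with TAC 5 the lowest (log2 fold change -0.58 ± 0.09 SE, adjusted p = 1.0e-04). Acadm, the medium-chain acyl-CoA dehydrogenase gene, fell from 609.6 ± 50.1 to 440.4 ± 51.5 CPM, Hadhb from 616 ± 14.99 to 448 ± 69.5 CPM and Eci1 from 303 ± 13.5 to 222 ± 28.8 CPM. Acad12 fell by 0.72 ± 0.11 on the log2 scale. Fabp3, the fatty acid binding protein of heart, was at 2285 and 2389 CPM, Lpl at 3764 and 3240.2 CPM and Pdk4 at 213 and 188 CPM, and none of these 3 passed the test. Ucp2 was not past the threshold without sham 1, sham 2, sham 3, sham 4, TAC 1, TAC 2, TAC 4 or TAC 5 in turn (adjusted p = 0.050 to 0.14) or with a robust spread estimate (adjusted p = 0.11).

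The tricarboxylic acid cycle, ketone and branched chain amino acid genes gave a like count. Of 45 tested, 23 fell and 1 rose (median -0.24), against 11 and 1 on total reads alone (median -0.13). Without TAC 5 the count that fell was 14, and without sham 4 it was 15. Sdha, the catalytic subunit gene of succinate dehydrogenase, was at 942, 918, 967, 838 and 915 CPM in sham and 671, 775, 767, 697 and 633 CPM in TAC, with every TAC library lower (log2 fold change -0.37 ± 0.07 SE, adjusted p = 0.0014). Branched chain amino acid catabolism gave several of the larger decreases: Aldh6a1 fell by 0.58 ± 0.09, Bckdha by 0.52 ± 0.09, Ivd by 0.41 ± 0.08 and Mccc2 by 0.40 ± 0.08 on the log2 scale. The one gene that rose was Bdh1, which interconverts ketone bodies (0.56 ± 0.17 SE, adjusted p = 0.035), and it was not past the threshold without sham 1, sham 3, sham 5, TAC 1, TAC 3 or TAC 5 in turn (adjusted p = 0.064 to 0.12) or with a robust spread estimate (adjusted p = 0.20). Idh2 and Mdh1 did not pass.

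Of 74 tested nuclear respiratory chain subunits, 35 fell and 0 rose, with a median of -0.24. On total reads alone 13 fell (median -0.13), and 27 fell with mitochondrial genes left out before scaling. Single libraries moved the count widely: 12 fell without TAC 5, 19 without TAC 1, 21 without sham 2 or sham 3, 22 without TAC 4 or sham 5 and 59 without TAC 3. In each of these fits 0 rose. Cox7a1, the muscle form of a cytochrome oxidase subunit, fell from 244 ± 14.7 to 173 ± 35.6 CPM, and Cox4i1 from 2681 ± 170.0 to 2091 ± 246 CPM. The complex I genes Ndufs1 and Ndufs7 fell by 0.32 ± 0.07 and 0.36 ± 0.08 on the log2 scale. Atp5b and Cox5a, at log2 fold changes of -0.22 and -0.19, did not pass. Of the 9 mitochondrially encoded genes tested, 4 fell and 0 rose, and 2 fell without TAC 1 or with all 15 libraries in the fit. The complex I gene mt-Nd5 fell by 0.39 ± 0.10 on the log2 scale and mt-Rnr1, a ribosomal RNA gene, by 0.51 ± 0.11.

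Fewer regulators of mitochondrial genes passed. On the authors' scaling 6 of 26 tested fell and 0 rose, but on total reads alone or with voom weights 0 fell, and 1 fell without TAC 5 and 2 without TAC 1, TAC 4, sham 3 or sham 5. Esrra, an orphan nuclear receptor that drives oxidative genes, had a log2 fold change of -0.30 ± 0.10 (adjusted p = 0.046; adjusted p = 0.21 on total reads alone), and Ppargc1a, its coactivator, had -0.31 ± 0.11 (adjusted p = 0.061).

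Single genes of glucose metabolism changed. Of 31 tested genes, 2 rose (Pfkp and Tkt) and 4 fell (Slc2a4, Pygm, Hk2 and Ldhb), against 7.03% and 5.52% of all genes tested. The count that rose lay near its share, and the count that fell depended on the scaling. Neither is read as a change of the list. On total reads alone the counts were 4 and 1. Without TAC 3, 5 rose and 6 fell. Leaving out TAC 1, TAC 5 or any of sham 1 to 4 left 1 rise, and leaving out TAC 5, sham 1 or sham 5 left 2 falls. Pfkp, a phosphofructokinase isoform outside adult muscle, rose from 25.4 ± 3.70 to 43.2 ± 6.72 CPM (adjusted p = 2.2e-04). Ldhb, the lactate dehydrogenase subunit of heart, fell from 2338 ± 151 to 1741 ± 263 CPM (adjusted p = 0.0021). Slc2a4, the insulin-responsive glucose transporter gene, fell by 0.29 ± 0.07 on the log2 scale (adjusted p = 0.013; adjusted p = 0.078 on total reads alone). Of Tkt, Pygm and Hk2, at least 1 lost its call when any single sham library was left out. The same held without TAC 1, TAC 2, TAC 4 or TAC 5 in turn, with an adjusted p of up to 0.12 over these refits. Aldoa was at 3409 and 3395 CPM.

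NAD and redox genes held the largest metabolic increase. Nmrk2, the muscle nicotinamide riboside kinase that makes NAD from the riboside, was at 7.89, 8.84, 10.7, 6.56 and 7.63 CPM in sham and 54.2, 18.6, 17.5, 55.8 and 123 CPM in TAC. Its 5 TAC libraries were all above sham, with TAC 5 far above TAC 2 and TAC 3 (log2 fold change 2.33 ± 0.34 SE, adjusted p = 8.6e-05). Nampt, which makes NAD from nicotinamide, fell from 218 ± 16.01 to 158 ± 23.8 CPM (adjusted p = 0.0012). Hmox1, the haem oxygenase gene, rose 1.70-fold, and the glutathione transferase gene Gstm1 fell by 0.45 ± 0.11 on the log2 scale. In the list as a whole 6 of 41 tested rose and 8 fell, 8 and 3 on total reads alone. The count that fell was 4 without TAC 1, TAC 5, sham 2 or sham 5, 5 without TAC 4 or sham 4 and 15 without TAC 3, and the count that rose was 3 without sham 1 and 2 without sham 3. Ckm, the muscle creatine kinase gene, was at 2527 and 2212 CPM and did not pass.

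In the list of fibrillar and associated collagens 12 of 12 tested genes rose, with a median of 1.41. Leaving out TAC 1, TAC 4, TAC 5 or sham 3 in turn left 11. Without the filter on low values 14 of all 14 in the files rose. Col3a1 stood at 163, 164, 116, 166 and 180.0 CPM in sham and 568, 469, 283, 739 and 689.8 CPM in TAC. TAC 3 was the lowest of the TAC libraries yet above all sham libraries (log2 fold change 1.74 ± 0.17 SE, adjusted p = 1.1e-06). Col1a1 was at 46.1, 48.1, 36.8, 51.4 and 56.1 CPM in sham and 176, 128, 85.7, 215 and 203 CPM in TAC, a rise of 3.24-fold (adjusted p = 1.4e-06). Col8a1, Col5a2 and Col5a1 rose 3.98-fold, 3.33-fold and 2.67-fold. Of 18 basement membrane genes 11 rose and 0 fell (median 0.48; 7 rose without TAC library 1 and 7 without TAC library 5), among them Col4a1 (1.87-fold), Col4a2 (1.72-fold), Col15a1 (2.26-fold) and Col18a1 (2.29-fold).

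The list of matricellular and elastic fibre proteins included some of the larger increases. Matricellular proteins signal to cells rather than bear load, whereas elastic fibre proteins are structural. Tnc, which encodes tenascin C, was at 1.45, 1.19, 1.12, 0.763 and 0.449 CPM in sham and 11.4, 5.62, 5.71, 10.5 and 19.1 CPM in TAC (log2 fold change 3.36 ± 0.38 SE, adjusted p = 4.4e-06). It was under the minimum of 3 CPM in all sham libraries and so was tested through the TAC libraries alone, with an adjusted p of 6.3e-06 in limma over all genes without the filter. Postn, which encodes periostin, a marker of activated fibroblasts, went from 29.5, 40.2, 24.7, 50.5 and 30.1 CPM to 306, 150.4, 94.7, 350.5 and 425 CPM. The groups were separate, and TAC 3 was again the lowest TAC library (adjusted p = 1.1e-06). Cilp rose 4.18-fold, Mfap5 3.11-fold, Mfap4 2.82-fold, Bgn 2.38-fold and Lum 2.15-fold. Without the filter, 20 of all 37 members in the files rose and 1, Ogn, fell. Ogn had a log2 fold change of -0.31 ± 0.10 (adjusted p = 0.043; adjusted p = 0.21 on total reads alone) and was not past the threshold without sham 1, sham 2, sham 3, sham 4, TAC 1, TAC 3 or TAC 5 in turn (adjusted p = 0.057 to 0.15).

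Of 32 tested enzymes and inhibitors that process the matrix, 19 rose and 0 fell, with a median of 0.52. Timp1, a secreted inhibitor of matrix metalloproteinases, was at 5.23, 4.09, 3.35, 4.73 and 3.74 CPM in sham and 36.002, 21.1, 11.9, 51.1 and 59.5 CPM in TAC, a rise of 7.37-fold (adjusted p = 1.4e-06). Among the collagen crosslinking oxidases, Lox rose 3.76-fold, Loxl2 2.62-fold and Loxl1 1.97-fold, and Pcolce, which helps to trim procollagen, rose 1.97-fold. Timp3 was at 130.3 and 122 CPM and did not pass.

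Several genes of the TGF-beta group rose. In the list of growth factors, without the filter, 12 of all 46 members in the files rose and 3 fell. Ltbp2, a matrix protein related to the binders of latent TGF-beta and under 3 CPM in all sham libraries, rose 4.85-fold, Fstl1 2.75-fold, Tgfb2 2.06-fold and the receptor gene Tgfbr2 1.42-fold. Igf1 rose from 23.2 ± 5.03 to 34.9 ± 8.13 CPM and was not past the threshold without sham 1, sham 5, TAC 4 or TAC 5 in turn (adjusted p = 0.054 to 0.061). Angpt1, the vessel-stabilising ligand of the TIE2 receptor, went the other way, from 13.7, 16.2, 20.6, 15.4 and 15.4 CPM in sham to 3.61, 10.1, 7.79, 11.7 and 4.21 CPM in TAC. No TAC library reached the lowest sham library, and TAC 1 and 5 were the lowest (log2 fold change -1.25 ± 0.25 SE, adjusted p = 0.0021). Vegfa at 207 and 199.9 CPM, Vegfb at 378 and 343 CPM and Apln at 15.7 and 14.4 CPM did not pass. Erbb2 and Erbb4, receptor genes for neuregulin, were at 6.52 ± 0.680 and 4.20 ± 1.65 CPM in sham and at 6.002 ± 0.494 and 2.44 ± 1.08 CPM in TAC and did not pass (adjusted p = 0.77 and adjusted p = 0.14).

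Of 15 tested fibroblast identity markers, 7 rose and 2 fell (median 0.14). The count that fell was 4 without TAC 3 and 1 without TAC 1, TAC 5, sham 1, sham 2 or sham 3, and the list summed to 2014 to 2176 CPM in sham and 1746 to 2306 CPM in TAC. The members that rose were mostly matrix genes such as Mfap4, together with Cd248 (log2 fold change 0.73 ± 0.17 SE) and the transcription factor gene Tcf21 (0.61 ± 0.14). Gsn, the abundant gelsolin gene, fell from 1013 ± 39.8 to 703 ± 181 CPM (adjusted p = 0.0034) and was not past the threshold with a robust spread estimate (adjusted p = 0.058). Pdgfra, chosen after its values were seen, was at 17.2 ± 3.73 and 17.7 ± 3.55 CPM (adjusted p = 0.91). The part of fibroblast number in the matrix results was not tested. Acta2, the smooth muscle actin gene of vessel walls and myofibroblasts, had a log2 fold change of 0.54 ± 0.16 (adjusted p = 0.029) and was not past the threshold without sham 1, sham 3, sham 5, TAC 2, TAC 4 or TAC 5 in turn (adjusted p = 0.062 to 0.097) or with a robust spread estimate (adjusted p = 0.20).

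Cytoskeletal genes rose over a wide front. Of 49 tested tubulin, microtubule and actin genes 36 rose and 0 fell, with a median of 0.53 (40 rose on total reads alone). Vim, which encodes the intermediate filament vimentin, was at 359, 415, 276, 469 and 388 CPM in sham and 995, 845, 627, 1019 and 1329 CPM in TAC, with no overlap (2.49-fold, adjusted p = 2.4e-06). The tubulin genes Tubb6 and Tubb5 rose 2.28-fold and 1.84-fold, S100a11 rose 1.87-fold and Pdlim1 1.62-fold. Map4, which binds microtubules, was at 195 and 211 CPM and did not pass. Of 20 tested YAP and TEAD target genes 5 rose and 0 fell, with a median of 0.12: Ankrd1, Tgfb2, Ccn2, Axl and Myof. Myof was not past the threshold without sham 1, sham 2, sham 3, sham 4, TAC 1, TAC 4 or TAC 5 in turn (adjusted p = 0.077 to 0.13). Ccn2, which encodes connective tissue growth factor, went from 81.05, 92.7, 115, 106 and 109 CPM to 269, 139.6, 113, 298 and 258 CPM (adjusted p = 0.001) and was not past the threshold with a robust spread estimate (adjusted p = 0.058), and Ccn1 was at 126 and 125 CPM.

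Many genes of the cell division cycle rose in TAC. Since some passed the filter only through the TAC libraries, they were counted without it, over all members in the files: 50 of 69 genes of G2 and mitosis rose and 0 fell (median 2.16), and 20 of 45 genes of G1 and S phase rose and 0 fell (median 0.83). Over all 15258 genes, 5.38% rose in the same fit. With 1 library left out, which was tried after the results were seen, 38 to 56 genes of G2 and mitosis rose, fewest without TAC 5. Of G1 and S phase genes 10 rose without TAC 5 and 11 without TAC 1. The G2 and mitosis genes summed to 369 to 444 CPM in sham and 556 to 1161 CPM in TAC, where TAC 1 and TAC 5 held the highest sums. Top2a, the topoisomerase of replicating and dividing cells, was at 2.78, 1.45, 1.12, 3.81 and 1.05 CPM in sham and 21.5, 8.12, 7.10, 9.77 and 29.2 CPM in TAC. All TAC libraries were above sham, with TAC 5 and TAC 1 the highest (log2 fold change 2.85 ± 0.39 SE, adjusted p = 3.8e-05). Cdk1, the kinase that starts mitosis, went from 1.67, 1.19, 1.44, 3.20 and 2.24 CPM to 15.5, 8.12, 6.75, 8.04 and 19.6 CPM (adjusted p = 1.7e-05).

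Other mitotic genes rose as well. The cyclin genes Ccna2 and Ccnb2 rose 6.28-fold and 6.30-fold, the proliferation marker Mki67 4.16-fold, the chromosomal passenger gene Birc5 5.60-fold and the spindle midzone genes Prc1 and Racgap1 5.64-fold and 5.93-fold. Ckap2, Anln, Cdca3 and Tacc3 rose 7.95-fold, 6.53-fold, 6.28-fold and 5.29-fold. Of these genes Anln, Birc5, Cdca3, Ckap2, Racgap1 and Tacc3 were under 3 CPM in all sham libraries, so that they were tested through the TAC libraries alone. Without the filter their adjusted p in limma was at most 5.0e-04. In S phase the replication gene Mcm3 rose 2.52-fold, the nucleotide enzyme genes Rrm2 and Tyms 4.45-fold and 3.93-fold, and Uhrf1, which maintains DNA methylation, 5.65-fold. Ccnd1, a G1 cyclin with higher levels, was at 116, 114, 93.9, 119 and 90.2 CPM in sham and 198, 160.4, 164, 149 and 214 CPM in TAC (adjusted p = 5.1e-05), and Ccnd2 and Ccnd3 did not pass. Which cells carried these transcripts was not measured. Cdkn1a, the p53-induced inhibitor, rose from 10.9 ± 4.57 to 19.9 ± 4.97 CPM and was not past the threshold with a robust spread estimate (adjusted p = 0.07). The imprinted inhibitor gene Cdkn1c fell by 0.67 ± 0.19 on the log2 scale and was not past the threshold without sham 1, TAC 1 or TAC 5 in turn (adjusted p = 0.050 to 0.07).

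Promoters of Cdk1 and Top2a are shown because mitotic genes are known to share the CHR element and CCAAT boxes near the start. The windows, build and capitals are as above. Cdk1 lies on the minus strand at chr10:69352873-69353072 and Top2a on the minus strand at chr11:99024150-99024349.
Cdk1: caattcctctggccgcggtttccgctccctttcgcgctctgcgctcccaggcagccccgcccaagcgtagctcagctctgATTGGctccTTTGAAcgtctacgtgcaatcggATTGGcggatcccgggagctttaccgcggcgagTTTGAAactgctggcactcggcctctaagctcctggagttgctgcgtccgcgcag
Top2a: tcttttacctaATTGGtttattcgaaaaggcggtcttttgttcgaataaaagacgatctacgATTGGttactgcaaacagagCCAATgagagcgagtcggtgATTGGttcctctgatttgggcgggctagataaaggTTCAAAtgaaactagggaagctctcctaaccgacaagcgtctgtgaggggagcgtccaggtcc
In Cdk1 the CHR, spelled TTTGAA, starts at -71 and -15, and CCAAT boxes lie on the opposite strand at -80 and -48. Top2a has a CHR on the opposite strand at -23 and CCAAT boxes at -149, -98, -78 and -58. Without the filter, a CHR on either strand was found in 66.7% of the 57 G2 and mitosis genes with a promoter entry, against 11.9% of all 11094 genes with one. A CCAAT box was found in 73.7% against 38.3%. The E2F motif spelled TTTCCCGC was found on either strand in 19.4% of 36 G1 and S phase genes and 1.99% of all. On the sense strand alone these shares were 2.78% and 1.01%. Counting only bases before the start, the E2F share was 11.1% against 1.67% of all. The CHR share of the G2 and mitosis genes was then 35.1% against 10.6% of all.

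Of 32 tested interferon-stimulated genes, 15 rose and 0 fell, with a median of 0.54, and 10 rose without TAC 5. Irf7, the transcription factor that amplifies type I interferon output, was at 5.003, 7.78, 6.22, 7.48 and 5.24 CPM in sham and 12.6, 10.1, 11.6, 17.9 and 14.5 CPM in TAC. The groups were separate, and TAC 4 was highest (log2 fold change 1.07 ± 0.19 SE, adjusted p = 7.3e-04). Ifit3 rose 2.33-fold, Oasl2 1.93-fold, Ifi27l2a 1.85-fold, Irf9 1.75-fold and Rtp4 1.70-fold. Ifit3 shares sequence with the near-identical copy Ifit3b, so its value is uncertain, and it was not past the threshold with a robust spread estimate (adjusted p = 0.071). Isg15, a ubiquitin-like protein, rose from 3.82 ± 1.29 to 6.99 ± 1.9998 CPM and was not past the threshold without sham 2, sham 3, sham 4, TAC 1, TAC 2 or TAC 5 in turn (adjusted p = 0.059 to 0.11).

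Promoters of Ifit3 and Isg15 are shown for the interferon-stimulated response element. Ifit3 lies on the plus strand at chr19:34583369-34583568 and Isg15 on the minus strand at chr4:156200779-156200978.
Ifit3: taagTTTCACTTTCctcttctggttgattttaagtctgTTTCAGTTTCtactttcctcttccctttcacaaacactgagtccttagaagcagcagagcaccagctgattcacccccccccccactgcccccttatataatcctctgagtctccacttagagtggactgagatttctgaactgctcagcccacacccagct
Isg15: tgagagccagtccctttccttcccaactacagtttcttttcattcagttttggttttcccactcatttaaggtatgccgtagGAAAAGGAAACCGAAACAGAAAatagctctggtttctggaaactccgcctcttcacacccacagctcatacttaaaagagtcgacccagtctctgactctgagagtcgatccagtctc
The element, searched as GAAANNGAAA on either strand, starts at -156 and -122 on the opposite strand in Ifit3 and in 3 overlapping copies from -78, -72 and -66 in Isg15. It was found in 52.2% of the 23 interferon-stimulated genes with a promoter entry and in 2.88% of all tested genes with one.

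Macrophage markers were partly higher. Of 23 tested, 10 rose and 0 fell (median 0.49), with sums of 781 to 1140 CPM in sham and 869 to 1679 CPM in TAC. Tyrobp, a signalling adaptor of myeloid cells, was at 19.9, 21.8, 16.7, 20.6 and 18.999 CPM in sham and 30.5, 31.1, 24.8, 34.2 and 33.8 CPM in TAC. The groups did not overlap (adjusted p = 9.2e-04). C1qa, C1qb and C1qc, the complement genes of resident macrophages, rose 1.44-fold, 1.46-fold and 1.41-fold, and Lgals3 rose 2.21-fold. The most abundant markers, Lyz2 at 379 and 426 CPM and Cd74 at 80.8 and 93.6 CPM, did not pass. Without TAC library 4, 6 markers rose and 1 fell. Of lymphocyte and granulocyte markers only 2 each could be tested, and 0 of these 4 passed in limma, at an unadjusted p under 0.05 or with voom weights.

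Chemokine and cytokine genes went both ways, with 4 rises and 4 falls among 21 tested (median 0.29). The shares of all genes tested were 7.03% and 5.52%. On total reads alone 5 rose and 2 fell. The count that rose was 2 without TAC 1, TAC 5, sham 2 or sham 3. With 1 library left out, 3 to 4 fell. The monocyte attractants Ccl2 and Ccl7 rose 2.32-fold and 2.02-fold. The chemokine gene Ccl11 fell from 7.74 ± 1.14 to 3.89 ± 1.04 CPM and the cytokine gene Il15 from 53.1 ± 2.32 to 29.1 ± 5.42 CPM. In antigen presentation 5 of 20 tested rose and 0 fell, but without TAC 4 the counts were 2 and 1. The count that rose was also 2 without sham 1, sham 3, sham 4 or sham 5 and 3 without TAC 3. B2m, which encodes the invariant chain of class I complexes, was at 458, 579, 530.3, 530.1 and 529 CPM in sham and 720.5, 677, 767, 1125 and 759 CPM in TAC, with TAC 4 the highest. The class I heavy chain genes share sequence, so H2-Q7, with a rise of 1.63-fold, is uncertain. Retnla, an alternative activation marker, fell by 1.29 ± 0.30 on the log2 scale, and the complement inhibitor gene Cd59a by 0.44 ± 0.09.

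Among chaperones 5 of 29 tested rose and 1 fell. The small heat shock genes of muscle led: Hspb6 was at 1052, 1113, 956, 1312 and 1166 CPM in sham and 2067, 1806, 1839, 1719 and 1982 CPM in TAC (log2 fold change 0.75 ± 0.08 SE, adjusted p = 2.4e-06), and Hspb1 rose 1.33-fold. Hsp90aa1 rose 1.33-fold, while Hspa8 and Hsp90ab1 did not pass and the co-chaperone gene Fkbp4 fell by 0.50 ± 0.09 on the log2 scale. In the endoplasmic reticulum list 8 of 29 rose and 1 fell, and 3 rose without TAC 5, 4 without TAC 1 and 5 without TAC 4 or sham 3. Kdelr3, a retrieval receptor, rose 2.03-fold, and Sec61a1, the translocon channel gene, 1.38-fold. Hspa5, the classic stress-induced chaperone of this compartment, was at 244 and 229 CPM and did not pass.

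Ribosomal and proteasome genes held few calls, against 12.6% of all genes tested. Of 79 cytosolic ribosomal protein genes 2 rose and 2 fell. On total reads alone 0 fell, without TAC 3 the count was 8, and without TAC 4, TAC 5 or any of sham 1 to 3 it was 0. Of 32 proteasome genes 0 passed in either direction on the authors' scaling (limma, adjusted p under 0.05). At an unadjusted p under 0.05, 1 proteasome gene was lower, and with voom weights 1 was higher. Among the 79 cytosolic ribosomal protein genes, which do not include Rpl3l, Rpl3 had the largest change. Muscle ubiquitin ligase, autophagy and lysosome genes gave 5 rises and 4 falls among 34. Their rises numbered 9 without TAC 3, 2 without TAC 1 or TAC 4 and 3 without TAC 5, sham 1, sham 3 or sham 5. Klf15, Foxo3 and Ulk1 fell by 0.69 ± 0.15, 0.48 ± 0.11 and 0.41 ± 0.09 on the log2 scale, and the lysosomal protease gene Ctsz rose 1.49-fold. Klf15 was not past the threshold with a robust spread estimate (adjusted p = 0.059).

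Vascular and signalling lists held calls in both directions, against 7.03% of all genes tested that rose and 5.52% that fell. For the pericyte, adrenergic, calcineurin and immediate early lists the counts lay near those shares and are not read as a change of the list. Endothelial markers had 4 rises and 4 falls among 29 (9 and 2 on total reads alone). There were 8 rises without TAC 3, 2 without TAC 1, sham 1 or sham 3 and 1 without TAC 5 or sham 5, and 2 falls without TAC 1 or TAC 5. The list summed to 2936 to 3277 CPM in sham and 2983 to 3149 CPM in TAC. Aqp1, the water channel gene of capillaries, fell from 185 ± 20.02 to 121 ± 31.2 CPM (adjusted p = 0.0027), Rgcc fell by 0.44 ± 0.10 on the log2 scale, and the lipase anchor gene Gpihbp1 rose 1.24-fold. Of pericyte markers 1 of 11 rose, Cspg4 at 1.57-fold, and 1 fell. In the adrenergic, angiotensin and cyclic AMP list Ace rose 1.46-fold and Pde4d fell by 0.58 ± 0.15 on the log2 scale, with 3 rises and 3 falls among 32. With 1 library left out there were 1 to 3 rises and 1 to 5 falls, most falls without TAC 3. Calcineurin, MEF2 and HDAC genes gave 2 and 2 among 27 and at least 1 of each with any library left out, and Hdac4 fell by 0.54 ± 0.12. Of 30 immediate early genes 2 rose, Ier5 (1.65-fold) and Klf10, and Klf10 was not past the threshold without sham 1, sham 5, TAC 2, TAC 4 or TAC 5 in turn (adjusted p = 0.065 to 0.10). In that list 6 rose without sham 5, and 1 without TAC 2, TAC 4, TAC 5 or sham 1.

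Some of the strongest single changes lay outside these systems. Mest, an imprinted gene of fetal growth, rose from 12.7 ± 2.14 to 45.8 ± 23.01 CPM (adjusted p = 2.7e-05). Inmt, a methyltransferase gene, fell from 7.89, 9.63, 16.1, 10.8 and 6.13 CPM to 2.17, 5.37, 3.64, 3.83 and 2.04 CPM, without overlap (adjusted p = 7.8e-04). Ces1d, a carboxylesterase with near relatives in the same cluster, fell from 114 ± 13.4 to 61.5 ± 24.3 CPM and was not past the threshold with a robust spread estimate (adjusted p = 0.054). Rbfox1, which regulates splicing in muscle and neurons, fell from 23.4 ± 3.64 to 12.3 ± 2.59 CPM (adjusted p = 2.9e-04). Ankrd24, Cryba4, Dnaaf3, Fuz, Gcat, Tbc1d10c, Tmem150c and Ybx2 complete the 15 most lowered, at log2 fold changes of -1.11, -1.01, -1.04, -0.97, -1.0, -1.14, -0.99 and -0.92. Of the 1341 called genes, 419 belonged to one of the 49 lists and 922 to none.

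**Figure D5:**
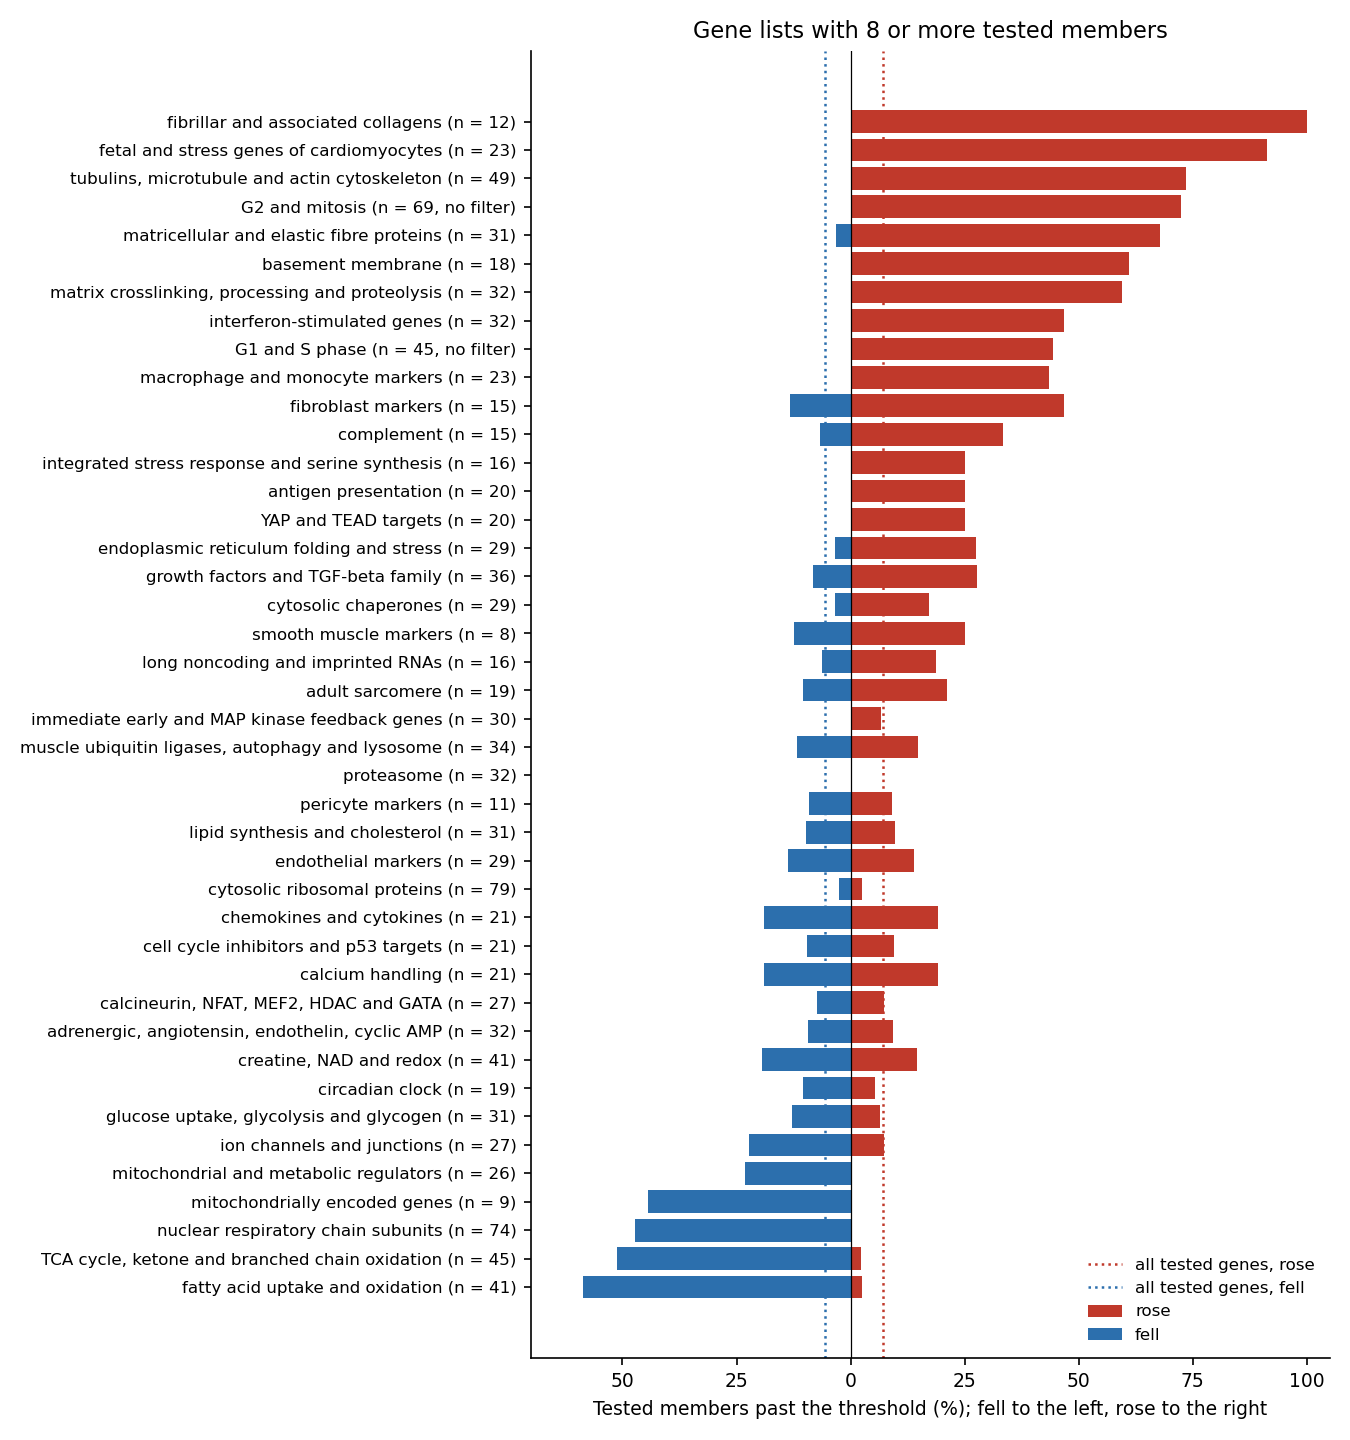
Percent of the tested members of each gene list (rows, n members) that rose (red, to the right) or fell (blue, to the left) in TAC saline, with dotted lines at the shares of all tested genes; the 2 cell cycle lists count all members in the files without a filter. Collagens, fetal genes and cytoskeletal genes reach the highest shares that rose, fatty acid and tricarboxylic acid cycle genes the highest shares that fell, and ribosomal and proteasome genes stay near 0.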

How the data were processed

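RNA of frozen left ventricle was made into 3′-end BRB-seq libraries, per the labels' protocols, with a single batch number in the labels. The genome build was GRCm39, per the submitters' processing notes, and for the aligner, counter, strand setting and scaling the entry is "not given in the sources used here". From the spacing of the deposited log2 values it was read that the authors added 0.5 to each read count, scaled each library by one factor and took the log2. Undoing the factor gave values within 0.05 of a whole read for 98.9% to 99.5% of genes per library. CPM are the deposited values out of the log, divided by 1000. Since the unit is log2, limma was the test and no count model was run.

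Genes needed 3 CPM in at least 5 of the 10 libraries and 15 reads in all, which left out 4578. A linear model per gene was fitted to the deposited values with limma 3.58.1 (R 4.3.3; eBayes with a mean-variance trend), and two-sided p-values were adjusted by Benjamini-Hochberg across 10680 genes. "Rose" and "fell" mean an adjusted p under 0.05. Values are mean ± SD of 5 libraries, log2 fold changes carry a standard error (median 0.15). The fit was tested on simulated data. No libraries of a group were duplicates.

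The groups, the 49 gene lists and the pairs were chosen with earlier results of these data known. Lists are described by counts and medians. Named genes were, among those past the threshold, the 15 with the highest and the 15 with the lowest log2 fold change (at least 5 CPM in the higher group, no overlap, no predicted genes), up to 5 members of a list in each direction with the smallest p and 2 abundant members that did not pass, a fixed set, and the 10 most abundant nuclear genes. Others are said to be chosen after their values were seen, as were 7 further lists. A few genes that the rule names are not reported here. Of the fixed set, Ccnb1, Comp, Cpt1b, Gdf15 and Spp1 were below the filter, and Fgf21 and Sln were not analysed here.

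Promoters are from RefSeq on GRCm38.p6, matched by symbol for 8470 tested genes and not compared with GRCm39 by position. Alternatives covered the scaling, voom weights, the filter, the pseudocount, the spread estimate, the threshold, the replicate numbers, all 15 libraries in the fit and leaving out each library. Tables and figures used Python 3.11.15, pandas 2.3.3, numpy 2.4.6 and matplotlib 3.10.9.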

Additional observations from a re-analysis of the deposited data

Results flagged for a closer look

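In each gene printed here with 5 libraries a group, the highest or lowest library was compared with the other 4 by Dixon's criterion (gap over range above 0.71). Of 424 such group checks 23 stood apart, and chance alone gives about 1 in 20. TAC library 4 was high for B2m at 1125 CPM against 677 to 767 CPM, Cd74 at 202 CPM against 58.8 to 72.1 CPM, Des at 1991 CPM against 1662 to 1716 CPM and Ltbp2 at 18.7 CPM against 6.06 to 8.53 CPM. B2m and Cd74 belong to the antigen presentation list. TAC library 2 was low for Ccl7 at 11.4 CPM against 19.9 to 22.7 CPM. TAC library 5 was low for Gcat at 3.01 CPM against 5.64 to 6.62 CPM. 

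Sham library 2 was high for Ccl2 at 21.8 CPM against 9.90 to 13.02 CPM, Hopx at 629.8 CPM against 537 to 560.2 CPM and Ivd at 201 CPM against 187 to 191 CPM. The same library was low for Ldb3 at 869 CPM against 919.5 to 939 CPM. Sham library 3 was low for Col3a1 at 116 CPM against 163 to 180.0 CPM, Hspb7 at 909 CPM against 1107 to 1143 CPM, Kdelr3 at 6.54 CPM against 11.4 to 12.8 CPM and Ldhb at 2084 CPM against 2347 to 2454 CPM. It was high for Cox4i1 at 2979 CPM against 2569 to 2644 CPM. Sham library 4 stood high for Col5a1 at 25.2 CPM against 17.2 to 18.3 CPM, Mccc2 at 78.3 CPM against 72.3 to 73.8 CPM, Mfap5 at 40.1 CPM against 26.2 to 29.7 CPM and Mybpc2 at 14.8 CPM against 7.005 to 8.45 CPM. Its level of one gene was low, with Pln at 5056 CPM against 5359 to 5459 CPM. Sham library 5 was high for Ccn1 at 227 CPM against 72.6 to 116 CPM, Myof at 6.13 CPM against 2.90 to 3.67 CPM and Tkt at 22.9 CPM against 19.7 to 20.4 CPM. Mybpc2 and Col5a1 were nonetheless above all sham libraries in every TAC library.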

How the results depend on the processing

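Scaled to total reads alone, 228 genes fell, and 235 fell with voom weights on recovered reads, with a median log2 fold change of all genes of 0.10 in both. Without a trend of spread on level, 653 genes passed (436 higher, 217 lower), and at an adjusted p under 0.01, 577 (379 higher, 198 lower). By the exact permutation of each gene, 891 had no overlap of libraries, 486 of them higher. Leaving out 1 library gave 780 to 1709 called genes, 482 to 891 higher and 298 to 818 lower. The lowest values came without TAC 5 and, next, without TAC 1 (868, with 339 lower), and the highest without TAC 3. Each of these refits held 1 library fewer. The other alternatives, namely median-of-ratios scaling, mitochondrial genes left out, all 15 libraries, 2 other filters, a pseudocount of 2 reads and a robust spread, gave 1121 to 1374 called genes, and 0 genes were called in opposite directions in any of the 21 refits. Of 258 named genes past the threshold, 141 kept their call in every refit that held them, and 0 changed direction. The refit at 10 CPM held 204 of the 258, and the one with mitochondrial genes left out held 254.

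The replicate numbers in the labels are shared by both groups. Deviations of same-numbered libraries correlated at 0.074, 0.029, 0.046, -0.016 and -0.0027. The library of the same number was the best match in 2 of 5 cases. Whether same-numbered libraries were paired in any way cannot be settled from these 5 correlations. With the replicate number as a block 1408 genes passed (789 higher, 619 lower). Depth limits the rarest genes, since the median standard error was 0.30 under 5 CPM and 0.081 over 100 CPM.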

Other observations

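Transcription factor genes of mesenchymal cells and Wnt pathway genes were listed after the results were seen. Of 16 tested mesenchymal factors 7 rose and 0 fell (median 0.58). Meox1, a homeobox gene of activated fibroblasts, was at 23.5, 20.4, 25.04, 18.2 and 18.999 CPM in sham and 69.3, 42.1, 36.5, 56.99 and 59.04 CPM in TAC (adjusted p = 4.4e-06). Sox9, a driver of cartilage matrix genes, rose 2.57-fold, and Twist1 2.18-fold. Of 18 tested Wnt pathway genes 4 rose and 0 fell (median 0.16). Frzb, a secreted Wnt antagonist, went from 2.56, 5.14, 3.99, 2.59 and 4.34 CPM to 11.1, 8.62, 6.06, 6.80 and 12.4 CPM, without overlap (adjusted p = 0.0021). Sfrp2 rose 2.31-fold and was not past the threshold without TAC 4 or TAC 5 in turn (adjusted p = 0.051 to 0.053) or with a robust spread estimate (adjusted p = 0.051).

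Mitochondrial maintenance genes, also listed after the results were seen, included some that fell. Of 22 tested genes of mitochondrial quality control 7 fell and 0 rose (median -0.16). Pink1, the kinase that marks damaged mitochondria, went from 516, 504, 539.9, 461 and 509 CPM in sham to 276, 406, 375, 371 and 279 CPM in TAC (log2 fold change -0.58 ± 0.09 SE, adjusted p = 2.6e-04). Of 13 tested coenzyme Q synthesis genes 5 fell and 0 rose (median -0.14), among them Coq8a (-0.49 ± 0.08 SE). Mitochondrial ribosomal protein genes moved little: 9 of 76 fell and 0 rose (median -0.14), while 68 of the 76 log2 fold changes were negative. These counts depended on the scaling: on total reads alone 2, 2 and 3 genes of the 3 lists fell and 0 rose, with medians of -0.05, -0.03 and -0.03, and 47 of the mitochondrial ribosomal fold changes were negative.

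Single genes that drew attention after their values were seen lie in other systems. Emp1, a membrane protein of growing epithelia, rose from 46.2 ± 7.22 to 146 ± 53.7 CPM, and Tnfrsf12a, the receptor of the cytokine TWEAK, from 70.3 ± 19.1 to 155 ± 52.02 CPM. Dnmt1, the maintenance DNA methyltransferase, rose 1.90-fold. Hopx, a homeodomain regulator of cardiac genes, fell from 567 ± 36.2 to 391 ± 104 CPM, and the orphan receptor gene Gpr22 from 42.5 ± 4.43 to 24.2 ± 5.60 CPM. Among 33 tested cilium genes 1 rose and 6 fell with a median of 0.00: Ift122 rose 1.94-fold, and Fuz and Dnaaf3 are among the most lowered genes named above. Of 32 tested nucleotide synthesis genes 7 rose and 1 fell (median 0.09).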
